A study of Sus scrofa with 6 samples.

Results

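The mRNAs described here are the 6 that mitochondrial DNA (mtDNA) encodes for respiratory complexes III, IV and V: COX1, COX2 and COX3 of cytochrome c oxidase, CYTB of the cytochrome bc1 complex, and ATP6 and ATP8 of ATP synthase. They were picked by gene name, with earlier results of these data known, and were 6 of the 31908 Ensembl pig gene IDs listed, each with a single row. RNA was sequenced from IPEC-J2 cells, an established line from the jejunal epithelium of newborn pigs, after 24 h with PBS (CON group) or with 50 μM chenodeoxycholic acid (CDCA group), a primary bile acid. There were 3 libraries in each group, and all 6 came from this one line. The study calls the libraries biological replicates, from cells treated in plates, but its methods and the labels do not say whether those of a group came from separate wells, passages or days, so the p-values measure the spread between these libraries.

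The proteins of the respiratory chain come from separate genomes. Most subunits are encoded in the nucleus and imported, while mtDNA supplies a few hydrophobic core subunits that are made inside the organelle. The 6 mRNAs are cut, with the rRNAs, most tRNAs and most complex I mRNAs, from long precursor RNAs that copy the same mtDNA strand. Complex III passes electrons from ubiquinol to cytochrome c, complex IV passes them on to oxygen, and complex V uses the proton gradient built up along the way to make ATP.

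Values were in TPM, each transcript's share of the library, scaled for transcript length, so the levels of different genes within a library can be set side by side. The study gives the reads of each library, which were not used here, and the number of reads behind a single TPM value is not known. The listed TPM summed to between 351770 and 366073 per library, whereas a complete library sums to 1000000. Of 8 epithelial markers, 7 were listed and 5 reached a mean of 1 TPM, with CLDN3 at 0 in every library. None of 6 intestinal epithelial markers (CDX1, CDX2, VIL1, FABP2, LGALS4 and MUC13) reached 1 TPM, and their summed level was 0.28 to 0.81 TPM per library. The summed epithelial markers were 646 to 668 TPM in CON and 1208 to 1347 TPM in CDCA, mainly through CLDN4. Among markers of other cells, 0 of 5 for fibroblasts, 1 of 5 for immune cells and 1 of 3 listed for endothelial cells reached 1 TPM. The immune markers summed to 0.45 to 1.37 TPM in CON and 4.95 to 6.11 TPM in CDCA, through CD68, while PTPRC, the defining leukocyte marker, was at most 0.01 TPM. The fibroblast markers summed to 1.34 to 1.82 TPM in CON and 0.93 to 1.10 TPM in CDCA, and the endothelial ones to 2.20 to 2.69 and 1.87 to 2.33 TPM. The part of these markers in the results below was not tested.

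All 6 mRNAs fell with CDCA, to between 0.140 and 0.243 of their CON level. Genes were compared by limma on log2(TPM + 1), with the false discovery rate (FDR) taken over all 8708 genes that reached a mean of 1 TPM. In the following, rose and fell mean an FDR under 0.05, and a gene was called lower or higher where its log2 fold change also exceeded 1 in size. All 6 members were called lower, against 3.90% of all tested genes (340 of 8708). For each member the lowest CON library lay above the highest CDCA library, a separation in this direction that 27.8% of tested genes showed. The libraries were bulk RNA, so fewer mitochondria per cell, a different mix of cells and less of these mRNAs per mitochondrion cannot be told apart in these files. The study's measurement of mtDNA copy number was not analysed here.

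COX1 encodes the catalytic subunit of cytochrome c oxidase, which holds the haem and copper site where oxygen is reduced. COX1 (ENSSSCG00000018075) was at 9428, 9023 and 8886 TPM in the CON libraries, compared with 1264, 1190 and 1379 TPM in the CDCA libraries. The lowest CON library was thus 6.45 times the highest CDCA library. The mean went from 9112 ± 282 to 1277 ± 95.2 TPM (SD, n = 3), and the log2 fold change by limma was -2.84 (SE 0.06, FDR 1.8e-06). COX1 had the largest fall of the 6, and its fall ranked 8th among the 8708 tested genes.

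COX2 carries the copper centre that accepts electrons from cytochrome c. COX2 (ENSSSCG00000018078) was at 8237, 7574 and 7163 TPM in CON, compared with 1487, 1307 and 1536 TPM in CDCA. The groups were far apart, although CON replicate 1 stood above the other CON libraries. The mean went from 7658 ± 542 to 1443 ± 121 TPM (SD, n = 3), a log2 fold change by limma of -2.41 (SE 0.08, FDR 3.96e-06). COX3, a core subunit that holds no metal centre, was the most even of the 6 across the CON libraries. COX3 (ENSSSCG00000018082) was at 6258, 6056 and 6057 TPM in CON, compared with 922, 902 and 1007 TPM in CDCA. Its mean went from 6124 ± 117 to 944 ± 55.7 TPM (SD, n = 3), a log2 fold change by limma of -2.70 (SE 0.05, FDR 1.8e-06), next to COX1 in size.

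CYTB encodes cytochrome b, the haem-bearing core of complex III and its only subunit made in the mitochondrion. CYTB (ENSSSCG00000018094) was the least abundant of the 6 in every library. It was at 1565, 1516 and 1455 TPM in CON, compared with 289, 263 and 308 TPM in CDCA, with no overlap. The mean went from 1512 ± 55.3 to 286 ± 22.6 TPM (SD, n = 3), and the log2 fold change by limma was -2.40 (SE 0.06, FDR 2.45e-06).

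ATP6 forms the proton path of the ATP synthase membrane part, and ATP8 is a small protein beside it. Their reading frames overlap in the RefSeq gene table, and that of ATP6 also overlaps COX3, so reads in the shared stretches could be split between the genes by the quantification. ATP6 (ENSSSCG00000018081) was at 5589, 5186 and 5229 TPM in CON, compared with 1077, 1006 and 1178 TPM in CDCA. Its mean went from 5335 ± 222 to 1087 ± 86.5 TPM (SD, n = 3), a log2 fold change by limma of -2.30 (SE 0.06, FDR 2.77e-06). ATP8 had the smallest fall of the 6 and the widest spread in CON. ATP8 (ENSSSCG00000018080) was at 8027, 7265 and 6554 TPM in CON, compared with 1854, 1640 and 1808 TPM in CDCA. Its mean went from 7282 ± 737 to 1768 ± 113 TPM (SD, n = 3), a log2 fold change by limma of -2.04 (SE 0.08, FDR 8.94e-06). Copies of mtDNA in the nuclear genome can share reads with any of the 6 genes. RSEM, which the authors used, divides such reads among genes by estimated abundance, and how many were divided for these genes cannot be read from TPM. The shares of multi-mapped reads that the study gives for each library were not used here.

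**Figure D1:**
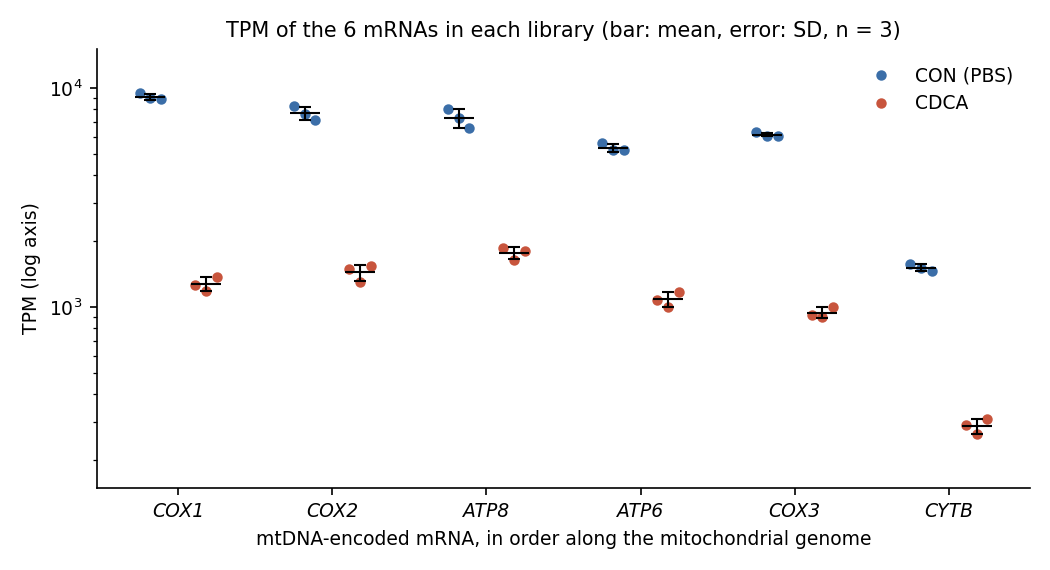
TPM of the 6 mRNAs in each of the 3 CON (blue) and 3 CDCA (red) libraries, on a log axis, with the mean and SD (n = 3) in black. For every mRNA the CDCA libraries lie below all CON libraries, and COX1 goes from the highest mean in CON (9112 TPM) to the middle of the CDCA values (1277 TPM).

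The spread between libraries was partly shared. CON replicate 1 was the highest CON library and CDCA replicate 2 the lowest CDCA library for each of the 6 mRNAs. The coefficient of variation was 1.90% for COX3 to 10.1% for ATP8 over the CON libraries, and 5.90% for COX3 to 8.38% for COX2 over the CDCA libraries. As shares of the 6 mRNAs within a library, the same values varied by 1.81% to 5.13% in CON and 1.24% to 3.55% in CDCA.

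Together the 6 mRNAs made up 10.7%, 10.1% and 9.87% of the listed TPM in the CON libraries, compared with 1.96%, 1.74% and 2.03% in those of CDCA. The mean share was 10.2% ± 0.420 in CON and 1.91% ± 0.153 in CDCA (SD, n = 3), 5.35-fold lower in CDCA. Their place among all genes moved accordingly. COX1, COX2, ATP8, COX3 and ATP6 held ranks 2 to 6 by mean TPM in CON and ranks 31 to 66 in CDCA, and CYTB went from rank 36 to rank 163.

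The order of the 6 levels also differed between the groups. In all 3 CON libraries the order by TPM was COX1, COX2, ATP8, COX3, ATP6 and CYTB. In all 3 CDCA libraries it was ATP8, COX2, COX1, ATP6, COX3 and CYTB. Some neighbours in these orders had overlapping levels across a group, namely COX2 and ATP8 in CON, and COX2 and COX1 as well as ATP6 and COX3 in CDCA. Within each library, however, COX2 was 1.03 to 1.09 times ATP8 in CON, and in CDCA COX2 was 1.10 to 1.18 times COX1 and ATP6 was 1.12 to 1.17 times COX3.

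Since a ratio of genes within a library does not move with the scaling of that library, the 15 pairs of members were compared as log2 ratios by an exact permutation test (two-sided). The smallest p that 3 libraries against 3 allow is 0.1, so no pair could reach 0.05. The ratio of 13 pairs was fully separated between the groups (exact p = 0.1, 0.115 after Benjamini-Hochberg adjustment over the 15).

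The widest shift was between COX1 and ATP8. The COX1 to ATP8 ratio was 1.17, 1.24 and 1.36 in the CON libraries, compared with 0.681, 0.726 and 0.762 in those of CDCA, a log2 difference of -0.80 (SE 0.08). COX1 was thus above ATP8 in every CON library and below it in every CDCA library. Within complex IV, the COX1 to COX2 ratio was 1.14, 1.19 and 1.24 in CON and 0.850, 0.911 and 0.897 in CDCA, a log2 difference of -0.43 (SE 0.05). COX1 and COX3 stayed closer together, with a ratio of 1.47 to 1.51 in CON and 1.32 to 1.37 in CDCA, a log2 difference of -0.14 (SE 0.02). The COX2 to COX3 ratio was 1.18 to 1.32 in CON and 1.45 to 1.61 in CDCA. The balance between the complex IV core mRNAs therefore shifted away from COX1 and COX3 and towards COX2.

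Among neighbours with overlapping reading frames, ATP8 and ATP6 shifted less than ATP6 and COX3. The ATP8 to ATP6 ratio was 1.25 to 1.44 in CON and 1.53 to 1.72 in CDCA, a log2 difference of 0.26 (SE 0.08). The ATP6 to COX3 ratio was 0.893, 0.856 and 0.863 in CON and 1.17, 1.12 and 1.17 in CDCA, a log2 difference of 0.40 (SE 0.03), so the order of these mRNAs turned around. Whether these differences between the pairs exceed the spread was not tested. The ratio of COX1 to ATP6 was 1.69 to 1.74 in CON and 1.17 to 1.18 in CDCA, a log2 difference of -0.54 (SE 0.01).

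For 2 pairs the groups overlapped. The COX2 to CYTB ratio was 5.26, 4.99 and 4.92 in CON and 5.15, 4.97 and 4.99 in CDCA, a log2 difference of -0.01 (SE 0.03, exact permutation p = 0.8). The COX2 to ATP6 ratio differed by -0.11 on the log2 scale (SE 0.04, exact permutation p = 0.2). COX2 and CYTB lie far apart in the mitochondrial gene order and belong to different complexes.

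As shares of the summed TPM of the 6 mRNAs, COX1 made up 24.1%, 24.6% and 25.1% in CON and 18.3%, 18.9% and 19.1% in CDCA, a difference of -5.86 percentage points on average. ATP8 made up 20.5%, 19.8% and 18.5% in CON and 26.9%, 26.0% and 25.1% in CDCA, higher by 6.35 points. COX3 had 16.6% ± 0.567 in CON and 13.9% ± 0.470 in CDCA, and ATP6 had 14.4% ± 0.335 and 15.97% ± 0.352 (SD, n = 3). The groups were apart for these mRNAs and for CYTB, whose share was 4.09% ± 0.0739 and 4.21% ± 0.0523 (SD, n = 3; exact permutation p = 0.1, 0.12 after adjustment over the 6 shares). The COX2 share overlapped between the groups, at 20.7% ± 0.399 and 21.2% ± 0.436 (SD, n = 3; exact permutation p = 0.2). A share depends on what it is taken over. Of the 13 mtDNA-encoded mRNAs in place of the 6, COX2, ATP6 and CYTB had lower shares in CDCA, by -2.14, -0.786 and -0.413 points. On that basis the ATP8 share was higher in CDCA by only 1.46 points.

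**Figure D2:**
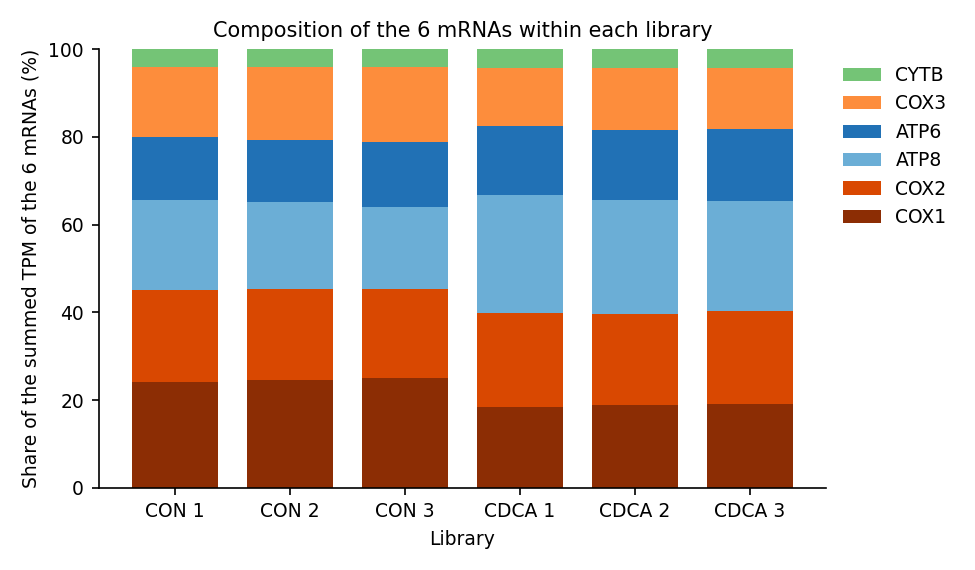
Share of each mRNA in the summed TPM of the 6, as a stacked bar for each library (percent). The ATP8 band is wider in every CDCA library (25.1% to 26.9%) than in any CON library (18.5% to 20.5%), and the COX1 band is narrower.

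Along the mitochondrial genome, COX1, COX2, ATP8, ATP6 and COX3 follow each other at places 3 to 7 of the 13 mRNAs, and CYTB is at place 13, by the order in the RefSeq gene table. The remaining 7 mRNAs encode complex I subunits, and all 7 were called lower too, with log2 fold changes of -1.29 (ND2) to -2.33 (ND6). ND1 and ND2, before COX1, had log2 fold changes of -1.45 and -1.29 by limma. ND3, ND4L and ND4, after COX3, had -1.57, -1.48 and -1.42. ND5 and ND6, next to CYTB, had -2.26 and -2.33. The changes therefore came in blocks along the map, with smaller falls at places 1, 2 and 8 to 10 and larger ones at places 3 to 7 and 11 to 13.

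Each of the 6 was set against each of the 7 as a log2 ratio within the library, in 42 pairs. These pairs also share genes, and no share over the pairs of other genes was computed. Against ND1, ND2, ND3, ND4L and ND4, the member fell more in 30 of 30 pairs with the groups fully apart, by -0.47 to -1.54 on the log2 scale (exact permutation p = 0.1 for each, the smallest possible, 0.111 after adjustment over the 42). Against ND5 and ND6 the outcome was mixed. In those 12 pairs the member fell more in 6, fell less in 2 and overlapped in 4. The 2 in which it fell less were ATP8 against ND5 (0.23, SE 0.08) and ATP8 against ND6 (0.30, SE 0.10). COX1 and COX3 fell more than both ND5 and ND6, with log2 ratios of -0.57 and -0.50 for COX1 and -0.43 and -0.36 for COX3. ND6 is copied from the opposite strand and ND5 and ND6 overlap in the gene table, and whether the quantification used strand is not given in the sources used here.

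Relative to the complex I mRNAs the 6 lost weight. Their summed TPM was 2.46 to 2.54 times that of the 7 complex I mRNAs in CON and 1.42 to 1.504 times in CDCA. They made up 71.4% ± 0.329 of the 13 mRNAs in CON and 59.6% ± 0.731 in CDCA (SD, n = 3).

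**Figure D3:**
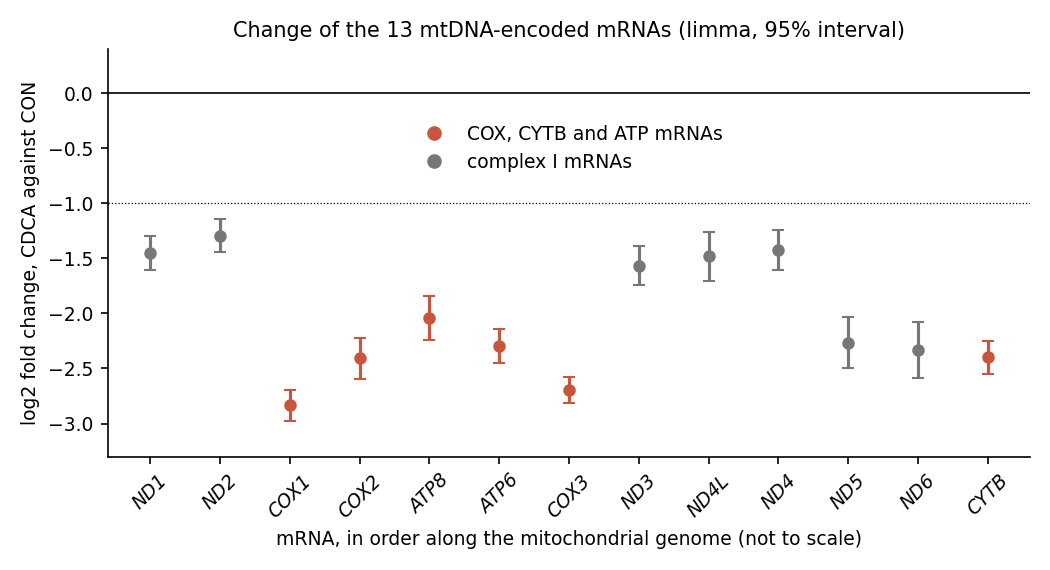
Log2 fold change of the 13 mtDNA-encoded mRNAs, CDCA against CON, by limma with 95% intervals, in order along the mitochondrial genome and not to scale. The 6 mRNAs (red) lie between -2.84 and -2.04, whereas ND1, ND2, ND3, ND4L and ND4 (grey) lie between -1.57 and -1.29 and ND5 and ND6 at -2.26 and -2.33.

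The partner subunits of the 6 proteins come from nuclear genes, and these did not move to the same extent. Of 44 nuclear-encoded subunits of complexes III, IV and V, counting ATP5IF1 and DMAC2L with complex V, 35 were listed and 30 were tested. Of the 30, 13 fell and 4 rose, against 23.9% and 29.3% of all tested genes, and 1 was called lower. Their median log2 fold change was -0.19, beside 0.05 for all tested genes and -2.40 for the 6 mtDNA-encoded mRNAs. These directions hold for TPM as deposited. Over all 74 tested nuclear genes of the lists used here, 29 fell and 11 rose, but 3 and 48 did with each library divided by its ACTB value, a scaling under which 6283 of all 8784 tested genes rose and 413 fell, when UQCR10, UQCRFS1, COX6A2, ATP5F1A, ATP5F1B, UQCC4, TMEM242 and HSD17B10 had fold changes above 0.

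In complex III, 3 of 6 tested nuclear subunits fell and 0 rose (1 without CDCA replicate 3). The number that fell was 2 when any library but CON replicate 1 was left out, and CYC1 had an FDR of 0.0434 by limma. UQCRQ, a small subunit, was the 1 called lower, at 34.1, 31.5 and 27.0 TPM in CON and 15.1, 12.9 and 13.5 TPM in CDCA, a log2 fold change by limma of -1.10 (SE 0.10, FDR 0.000159). UQCR10, another small subunit, fell by 0.33 on the log2 scale, and UQCRFS1, the Rieske iron-sulfur protein, had a log2 fold change of -0.31 (SE 0.14, FDR 0.11 by limma) at a mean of 1.55 TPM in CON, which was -0.20 without CON replicate 1, -0.51 with a pseudocount of 0.1 TPM and -0.56 with totals without mtDNA. In complex IV, 2 of 9 fell and 1 rose, but 6 fell and 0 rose with totals without mtDNA, and 1 fell without CON replicate 1, CON replicate 2, CDCA replicate 1 or CDCA replicate 2. COX6A1 fell by 0.77 on the log2 scale, at a mean of only 3.68 TPM in CON and 1.75 TPM in CDCA. It had -1.03 with a pseudocount of 0.1 TPM and -0.25 (FDR 0.0887 by limma) with each library divided by its ACTB value. COX5B rose by 0.25, and with totals without mtDNA it had 0.10 (FDR 0.0690 by limma), while the muscle-type subunit COX6A2 had -0.31 (SE 0.12, FDR 0.0665 by limma), and -0.52 (FDR 0.0264) with totals without mtDNA.

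In complex V, 8 of 15 listed nuclear genes fell and 3 rose. Those that rose were DMAC2L, ATP5IF1 (0.14, FDR 0.0209 by limma) and ATP5PO (0.10, FDR 0.0493 by limma). ATP5IF1 and ATP5PO were named after their values were seen. ATP5IF1 is an inhibitor of ATP synthase, so the list reaches beyond structural subunits. The number that rose was 1 without CON replicate 2, CON replicate 3 or CDCA replicate 3, and also with totals without mtDNA, with scaling to the median ratio and without the trend in limma. ATP5F1A and ATP5F1B, the alpha and the catalytic beta subunit, fell by 0.64 and 0.63 on the log2 scale. ATP5F1B was at 276, 278 and 262 TPM in CON, compared with 169, 184 and 173 TPM in CDCA, without overlap. DMAC2L, which is related to ATP synthase coupling factor B, rose by 0.67.

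The distance between the genomes can be given as the mean TPM of a complex's mtDNA-encoded mRNAs over the median TPM of its tested nuclear subunits in the same library. For complex III this ratio was 35.3 to 36.8 in CON and 5.89 to 7.17 in CDCA. For complex IV it was 46.5 to 50.2 and 8.55 to 8.998, and for complex V 65.7 to 68.5 and 15.5 to 18.9. The groups did not overlap in any of the 3 complexes.

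Assembly factors help to insert the mtDNA-encoded subunits and build the complexes. The counts below stand against 23.9% of all tested genes that fell and 29.3% that rose. For complex III, 2 of 7 tested factors fell (4 without CDCA replicate 2) and 1 rose, with a median log2 fold change of -0.23. UQCC1 and UQCC2 act together on newly made cytochrome b. UQCC2 rose by 0.50 (SE 0.06). UQCC1 had a log2 fold change of -0.68 (SE 0.11, FDR 0.00218 by limma), but -0.43 (FDR 0.0684) by the highest listed row of the gene and -0.019 (FDR 0.914) with ACTB scaling. UQCC4 fell by 0.56. For complex IV, 6 of 15 fell and 3 rose, with a median of -0.12. COX19, a factor of copper delivery to the oxidase, was called higher, as 3.51% of all tested genes were, and was at 3.22, 3.10 and 3.43 TPM in CON and 7.96, 8.26 and 7.61 TPM in CDCA, a log2 fold change by limma of 1.07 (SE 0.07, FDR 5.3e-05). COX20, a chaperone of newly made COX2, fell by 0.73, but had -0.021 (FDR 0.877 by limma) with ACTB scaling. COA4 fell by 0.95, and had -0.29 (FDR 0.0433 by limma) with ACTB scaling. For complex V, 3 of 5 fell and 2 rose (1 without CON replicate 1, CDCA replicate 1 or CDCA replicate 3), with a median of -0.24. ATPAF1, a chaperone of the catalytic head, fell by 0.82, but had -0.14 (FDR 0.200 by limma) with ACTB scaling. FMC1 rose by 0.86, with an FDR of 0.0523 by limma when each library was divided by its GAPDH value. TMEM242 had a log2 fold change of -0.34 (SE 0.10, FDR 0.0312 by limma), with an FDR of up to 0.0952 when CON replicate 2, CON replicate 3 or any of the CDCA libraries was left out.

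Mitochondrial mRNAs are made by a dedicated polymerase, freed from the precursor by enzymes that cut at either end of the tRNAs, and stabilised by RNA-binding proteins. Of 25 listed factors of this machinery, 17 were tested, 5 fell and 1 rose, against 23.9% and 29.3% of all tested genes, with a median log2 fold change of -0.09. The number that fell was 3 without CON replicate 2 or CDCA replicate 2, and the number that rose was 2 without CON replicate 1. The polymerase itself (POLRMT), TFB2M, TEFM, FASTKD1, FASTKD3, FASTKD5, TBRG4 and MTPAP had a mean under 1 TPM and were not tested. ELAC2, the nuclease that cuts at the 3′ ends of tRNAs, was called lower. It was at 11.1, 8.94 and 12.7 TPM in CON and 3.84, 2.02 and 3.06 TPM in CDCA, a log2 fold change by limma of -1.60 (SE 0.20, FDR 0.000669). TRMT10C, HSD17B10 and the catalytic subunit PRORP make up mitochondrial RNase P, which cuts at the 5′ ends, and they did not move alike. PRORP, named after its values were seen, was the 1 factor that rose, from 132, 126 and 118 TPM in CON to 177, 170 and 180.5 TPM in CDCA, a log2 fold change by limma of 0.49 (SE 0.05, FDR 0.000303). TRMT10C fell by 0.57, but had -0.015 (FDR 0.907 by limma) with ACTB scaling. HSD17B10 had a log2 fold change of -0.62 (SE 0.36, FDR 0.198 by limma) with overlapping groups. For HSD17B10, CON replicate 3 was at 15.02 TPM against 6.15 and 6.81 TPM in the other CON libraries. The HSD17B10 value was -0.25 without CON replicate 3, -0.39 without CDCA replicate 2 and -1.45 by the highest listed row. Named after their values were seen, LRPPRC, which with SLIRP stabilises mitochondrial mRNAs, fell by 0.38, SLIRP had -0.14 (FDR 0.163 by limma), and the transcription and packaging factor TFAM fell by 0.30.

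**Figure D4:**
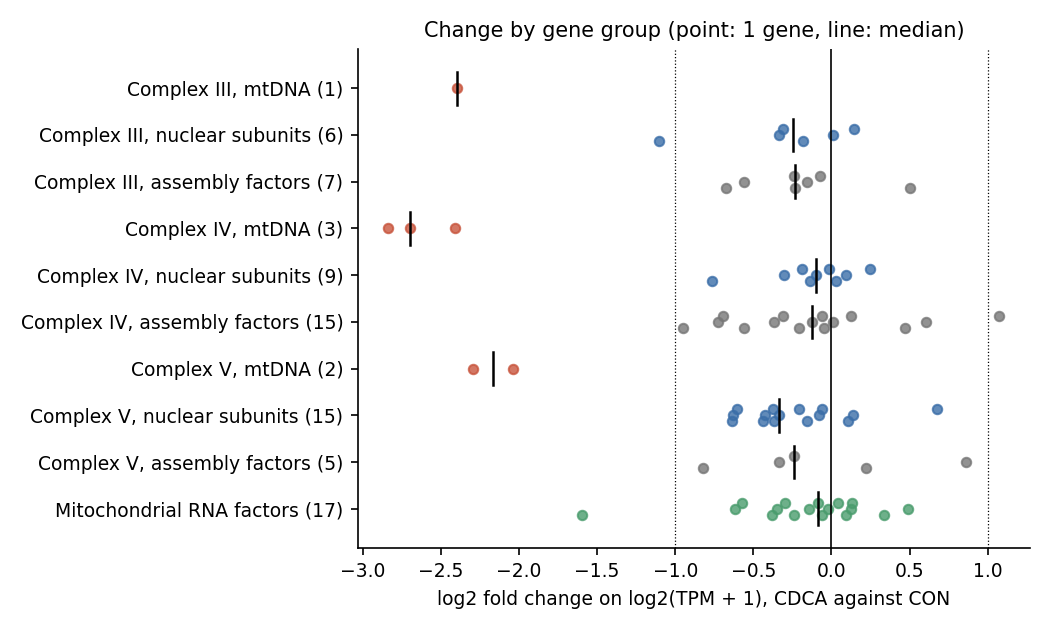
Log2 fold change of each tested gene, CDCA against CON, by gene group, with the group median as a black line and dotted lines at a log2 fold change of 1 in size. The 6 mtDNA-encoded mRNAs of these complexes (red) lie at -2.04 or lower, and of the nuclear-encoded genes only UQCRQ and ELAC2 lie beyond -1, while COX19 lies beyond 1.

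The mean profile of the 6 mRNAs was also compared with tested nuclear genes that have a symbol and with each mtDNA-encoded mRNA. Each gene was taken as its log2(TPM + 1) in the 6 libraries minus its own CON mean, and likeness was the root mean square distance from the mean profile of the 6. Among the 5 nearest of 7967 tested nuclear genes with a symbol were TK1 (0.0795), PCLAF (0.161), CDCA3 (0.164) and TYSND1 (0.185). TK1, the cytosolic thymidine kinase, was at 57.2, 59.0 and 58.1 TPM in CON, compared with 9.45, 8.54 and 9.70 TPM in CDCA. PCLAF encodes a partner of the replication clamp, CDCA3 a cell division protein whose symbol is unrelated to the bile acid, and TYSND1 a peroxisomal protease. TYSND1 was near the floor in CDCA, at 4.49, 4.36 and 5.66 TPM in CON and 0.23, 0.17 and 0.07 TPM in CDCA, so its ratio of TPM was farther from that of the 6 than its log2(TPM + 1) profile. By the same measure CYTB and COX2 were closest to the mean of the 6 (0.0367 and 0.0379), COX1 and ATP8 farthest (0.276 and 0.293), ND6 and ND5 at 0.106 and 0.139, and ND1, ND2, ND3, ND4L and ND4 at 0.623 to 0.815.

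The reference genes of the study did not move alike. GAPDH was at 184, 242 and 314 TPM in CON, compared with 283, 257 and 218 TPM in CDCA, and the limma log2 fold change was 0.06 (SE 0.19, FDR 0.809). ACTB was at 1154, 1302 and 1267 TPM in CON, compared with 766, 787 and 704 TPM in CDCA and fell by 0.72 on the log2 scale. With each library divided by its ACTB value, which raised the median of all tested genes by 0.60, the 6 mRNAs were still called lower, with log2 fold changes of -1.32 to -2.11, while only 2 of the 7 complex I mRNAs were.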

How the data were processed

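Per the study's methods, the authors quantified quality-filtered reads with RSEM. The deposited table used here holds TPM values (length-scaled shares of each library) and no read counts. The submitters' processing notes name Bowtie 0.12.2 and the mouse build mm10, whereas the deposited gene IDs are those of pig. The annotation release and the strand setting are not given in the sources used here. Listed rows of a gene ID were summed (63041 rows of 31908 IDs). Groups came from the sample titles.

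The 8708 genes whose TPM averaged 1 or more across all libraries were compared in R 4.3.3 with limma 3.58.1 (lmFit, eBayes with a trend) on log2(TPM + 1), with Benjamini-Hochberg adjustment. On this scale, the change of weakly expressed genes is understated. The authors used edgeR, a count-based test that could not be applied to TPM. A gene was called at an FDR under 0.05 and a log2 fold change over 1 in size. Only the limma steps were tested on simulated data, in which far fewer genes changed than here and the noise was independent between genes. The ratios, shares and permutation tests were not tested in this way. Ratios and shares within libraries were computed in Python 3.11.15 and compared by exact two-sided permutation tests. Mitochondrial gene order and overlaps came from the positions in the RefSeq gene table of Sscrofa11.1, and no coordinates are printed.

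The members, gene lists and tests were chosen with earlier results of these data known. The text names all 6 members, every called gene and the 3 largest changes of each list, the 5 genes nearest in profile, and GAPDH and ACTB. The result for 1 gene among the nearest in profile is left out. Alternatives were another pseudocount, other filters, other scalings, no trend, the highest row of each gene, a replicate block and each library left out in turn. The scalings to ACTB and to GAPDH were added after seeing the data.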

Additional observations from a re-analysis of the deposited data

How the results depend on the processing

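All 6 mRNAs were called lower by limma in each of 17 alternatives, with log2 fold changes of -1.32 to -2.99 and FDR values of at most 0.000241. With 1 library left out, the log2 fold changes were -2.89 to -2.79 for COX1, -2.45 to -2.34 for COX2, -2.11 to -1.97 for ATP8, -2.36 to -2.24 for ATP6, -2.75 to -2.67 for COX3 and -2.45 to -2.34 for CYTB. The CDCA to CON ratio of the summed share was 0.187, and 0.165 relative to genes outside mtDNA.

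Of the nuclear genes, 2 were called lower, but 4 with a pseudocount of 0.1 TPM, 5 with totals without mtDNA and 0 with ACTB scaling. The number called higher was 1, and 7 with ACTB scaling. The number that fell was 29, and 3 with ACTB and 6 with GAPDH scaling. The number that rose was 11, and 7 with totals without mtDNA, 48 with ACTB and 1 with GAPDH scaling. The complex I mRNAs called lower were 7, and 2 with ACTB scaling. Under ACTB scaling the log2 fold change turned positive for UQCR10 (0.38), UQCRFS1 (0.087), COX6A2 (0.19), ATP5F1A (0.078), ATP5F1B (0.089), UQCC4 (0.11), TMEM242 (0.33) and HSD17B10 (0.0097). In 28 other fits a named nuclear gene kept its direction but no longer passed the FDR threshold or, for UQCRQ and ELAC2, the fold threshold. Of these, 12 were under GAPDH scaling, where the log2 fold change was 0.751 to 1.19 times and its SE 2.60 to 8.23 times that for deposited TPM, and 7 under ACTB scaling, where UQCRQ and ELAC2 kept an FDR under 0.05 (0.0205 and 0.00377) with -0.42 and -0.998. In 3 fits COX6A2 passed. Over all tested genes, 306 were called higher and 340 lower, beside 367 and 682 with totals without mtDNA, which moved the median by -0.12, 509 and 505 with a pseudocount of 0.1 TPM, 523 and 481 with listed TPM rescaled to 1000000, and 1931 and 88 with ACTB scaling. With a minimum of 5 TPM 197 and 238 were called. GAPDH scaling left 611 genes higher and 767 lower at an FDR under 0.05, beside 2550 and 2085.

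Over the 13 mRNAs, and without ATP8, the share differences in points were -6.41 and -5.29 for COX1, -2.14 and 2.91 for COX2, -0.79 and 3.64 for ATP6, -3.56 and -1.85 for COX3, -0.41 and 0.60 for CYTB, and 1.46 over the 13 for ATP8. The COX2 to CYTB log2 difference was -0.025 to 0.023 with 1 library left out. The cause of these shifts was not tested. Same-numbered libraries did not deviate together (correlations -0.0916, -0.0509 and -0.0353, beside -0.0274 to 0.0746 for the other pairs). With so few libraries this cannot decide whether they shared a plate, passage or day. With the replicate block all 6 mRNAs were still called, 23 nuclear genes fell and 9 rose, and the exact test of shares and ratios could not go below 0.25. Without the reads behind each value, counting error is unmeasured.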
